A study of Mus musculus with 6 samples.

Results

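The dystrophin glycoprotein complex ties the actin cytoskeleton of a muscle fibre to the matrix around it. Dystrophin binds actin inside the fibre, beta-dystroglycan in the membrane binds dystrophin, and alpha-dystroglycan outside holds laminin. The sarcoglycans and sarcospan brace dystroglycan within the membrane, dystrobrevin and the syntrophins form a signalling scaffold on dystrophin, and utrophin is the dystrophin relative that is found chiefly at the nerve-muscle junction of adult fibres. Loss of dystrophin causes Duchenne muscular dystrophy in humans, and loss of a sarcoglycan causes a limb-girdle dystrophy.

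The 8 members described here were picked by symbol: Dmd (dystrophin), Utrn (utrophin), Dag1 (dystroglycan), Sgca, Sgcb and Sgcd (alpha-, beta- and delta-sarcoglycan), Sspn (sarcospan) and Dtna (alpha-dystrobrevin). They are 8 of the 22036 genes listed, and all 8 were found. Dmd was picked because of its strong fall in these same libraries, so its values are given as a description with no test. The others were taken as its partners in the complex, with the results already known.

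Full-length cDNA of total RNA from the quadriceps femoris, a thigh muscle, was read by nanopore sequencing in 3 libraries of Prr14-KO mice (KO) and 3 libraries of Prr14-WT mice (WT). PRR14 anchors heterochromatin to the nuclear lamina, and the comparison asks which muscle genes differed between the genotypes. The age, sex and strain of the mice, the part of Prr14 that was removed, and whether it was removed in every tissue or only in muscle are not stated in the labels. Nor do the labels say that each library is a separate animal, so the p-values cover only library-to-library spread, which may be technical.

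The libraries held 1488684 to 1678288 read counts in KO and 1436099 to 1712975 in WT. Prr14 itself had 4, 10 and 3 counts in KO replicates 1 to 3, against 9, 11 and 12 in WT replicates 1 to 3. KO replicate 2 thus lay inside the WT range of raw counts at this depth, and just below that range once scaled. The fibre markers Acta1, Ckm, Mb, Mybpc2, Actn3 and Tnnt3 summed to 96807 to 108842 CPM (read counts after TMM, an edgeR scaling that corrects for a few abundant genes) in KO and 117195 to 152406 CPM in WT, with Acta1 called lower, so fibre RNA was plentiful in every library. Of 6680 genes with enough reads to be tested, 199 were called higher and 219 lower in KO by edgeR's quasi-likelihood test at a Benjamini-Hochberg adjusted p under 0.05. Scaled by library totals alone, 653 were higher and 148 lower, since the median log2 fold change over the tested genes was 0.25 on that scale and 0.02 on the TMM scale. Changes are given on the TMM scale.

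The stretches of 250 bases before the start sites of Dmd, Utrn and Sgca are shown because Dmd had the largest difference among the members, Utrn is its closest relative, and Sgca moved the other way. They come from RefSeq on GRCm38.p6 and read 5′ to 3′ on the strand of the gene. Capitals mark matches, on either strand, to motifs known from muscle promoters: the E-box (CANNTG), the MCAT element (CATTCC), the CArG box and the MEF2 site.
Dmd, first start, chrX:82948620-82948869, plus strand: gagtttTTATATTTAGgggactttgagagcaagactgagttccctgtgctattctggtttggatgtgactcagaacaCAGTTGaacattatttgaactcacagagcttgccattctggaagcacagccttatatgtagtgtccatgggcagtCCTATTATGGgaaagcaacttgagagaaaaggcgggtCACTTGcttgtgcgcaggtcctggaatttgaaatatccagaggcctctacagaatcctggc
Dmd, internal start, chrX:85048045-85048294, plus strand: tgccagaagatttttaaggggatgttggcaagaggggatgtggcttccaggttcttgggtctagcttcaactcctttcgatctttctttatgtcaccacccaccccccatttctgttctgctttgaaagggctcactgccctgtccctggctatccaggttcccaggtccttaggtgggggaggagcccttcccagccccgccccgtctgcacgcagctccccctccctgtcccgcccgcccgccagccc
Utrn, chr10:12861736-12861985, minus strand: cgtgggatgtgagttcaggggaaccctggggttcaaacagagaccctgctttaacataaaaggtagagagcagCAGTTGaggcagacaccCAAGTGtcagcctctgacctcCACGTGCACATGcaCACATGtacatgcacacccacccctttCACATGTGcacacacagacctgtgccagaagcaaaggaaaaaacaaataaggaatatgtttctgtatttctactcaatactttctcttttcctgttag
Sgca, chr11:94976328-94976577, minus strand: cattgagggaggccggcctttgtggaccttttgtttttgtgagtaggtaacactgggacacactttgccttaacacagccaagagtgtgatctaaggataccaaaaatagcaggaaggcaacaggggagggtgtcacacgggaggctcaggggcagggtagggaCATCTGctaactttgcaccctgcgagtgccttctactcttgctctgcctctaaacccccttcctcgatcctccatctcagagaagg

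The window before the first Dmd start held 1 MEF2 site beginning 244 bases before the start, 1 CArG box at 98 bases, and E-boxes at 173 and 61 bases. Of all 32851 promoter windows of this length, 2.92% held a MEF2 site, 1.47% a CArG box, 12.6% an MCAT element and 66.2% an E-box. The window before the internal start held none of the 4 motifs, and its GC content was 60.0%, against 45.2% before the first start. The Utrn window held 7 E-boxes, of which the last 2 overlap, and the Sgca window held 1 E-box at 86 bases. The Utrn start used here lies 7.63 kb inside the annotated gene. The longest annotated Utrn transcript, of 12382 bases, begins within 100 bases of it, and stretches before other Utrn starts were not examined. Among the other members with a window, Sgcb had none of the motifs, while the MCAT element was found before the Sgcd start and both Sspn starts of the RefSeq table. No GENCODE transcript begins within 100 bases of that Sgcd start, which lies 609.6 kb inside the annotated gene, or of the first Sspn start. The Utrn window and that of the first Sspn start end in letters rich in c and t, then ag, as introns commonly do. Either may thus be intron rather than promoter, which was not tested. These are matches of letters, and no binding was measured.

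Dmd was far lower in KO muscle. Its counts were 14, 24 and 26 in KO replicates 1 to 3, against 136, 127 and 128 in WT replicates 1 to 3. Every KO library lay below every WT library, and the WT libraries lay close together. Its level was 12.8 ± 3.68 CPM in KO and 91.1 ± 7.03 CPM in WT (SD, n = 3 each), a log2 fold change of -2.82 (SE 0.21), so that WT held 7.06 times the KO level. Only 12 of the 6680 tested genes had a lower log2 fold change. In bulk tissue, fewer fibres and less RNA per fibre cannot be told apart. The fibre markers had log2 fold changes of -0.66 for Acta1, -0.39 for Tnnt3 and -0.25 for Ckm. Actn3 stood at -0.12, Mb at -0.04 and Mybpc2 at 0.03, and of these markers only Acta1 passed. Other abundant fibre genes, picked after their values were seen, fell further, with -1.36 for Myh4, -0.97 for Ttn and -0.91 for Neb, all called lower. The part of fibre content in the Dmd difference was not tested.

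Dmd (ENSMUSG00000045103) spans 82948870 to 85206141 on the plus strand of chromosome X (GRCm38, GENCODE M21), or 2257 kb. Its longest annotated transcript has 79 exons and 14910 bases and encodes the full-length protein of 3678 residues from the first start. A transcript of 4438 bases with 617 codons begins past the internal start, at 85048413, where the short product Dp71 is known to begin. It is not among the 3 transcripts that begin within 100 bases of the internal start, which have 0 codons annotated. The printed internal window ends at 85048294, so it is not the stretch directly before that coding transcript. The counts are per gene, so they do not show which start the remaining 64 reads in KO or the 391 in WT came from. Of 5 other genes annotated over the Dmd span, 1 was in the table, with no read.

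**Figure D1:**
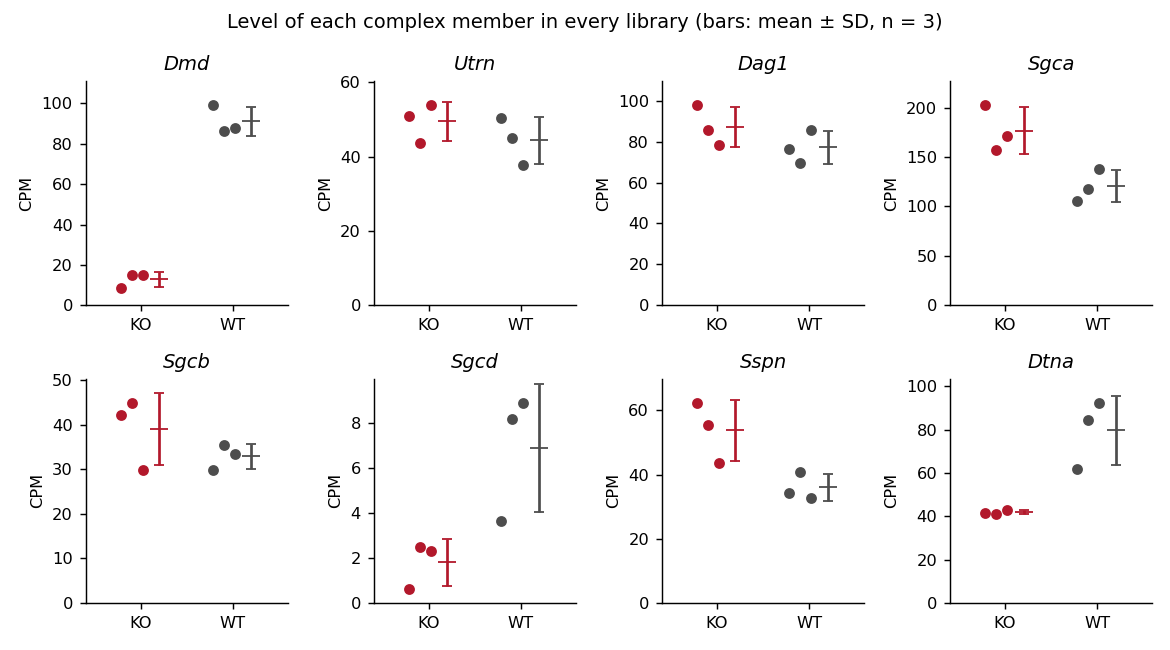
Level of each member in CPM (TMM-scaled read counts) in every library, with KO left and WT right, points for replicates 1 to 3 and the mean ± SD beside them. Dmd, Dtna and Sgcd lie lower in all KO libraries, Sgca and Sspn lie higher in all KO libraries, and Utrn, Dag1 and Sgcb overlap.

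Because the Dmd transcript is long, reads of other long transcripts are given beside it. Genes whose longest annotated transcript is 10 kb or more took 1.59 ± 0.121% of counts in KO and 2.21 ± 0.136% in WT (p = 0.1 by an exact two-sided permutation test, which cannot go lower with 3 libraries a group). With the abundant sarcomere genes Neb and Ttn left out, an alternative chosen after seeing the data, the share was 0.610 ± 0.0177% in KO and 0.620 ± 0.0691% in WT (p = 0.9 by the same exact test). Most of the gap in this class thus lay in Neb and Ttn. Without them, WT replicates 1 and 2, at 0.662% and 0.658%, still lay above every KO library (0.593 to 0.628%). WT replicate 3, at 0.541%, lay below them all, so the near-equal means rest on that library. The class of 5 to 10 kb also took a smaller share in KO, 5.93 ± 0.145% against 6.96 ± 0.378% in WT (p = 0.1 by the same exact test). The class of 2 to 5 kb took 40.5 ± 0.802% in KO and 38.2 ± 0.500% in WT (p = 0.1 by the same exact test). Genes under 2 kb took 52.0 ± 0.650% in KO and 52.7 ± 0.00719% in WT (p = 0.4 by the same exact test). The part of this wider shift in the Dmd difference was not tested. Of the 163 tested genes of 10 kb or more 0 were called higher and 9 lower, Dmd, Neb and Ttn among the 9. That is 5.52% lower, against 5.05% in the class of 5 to 10 kb and 3.28% of all tested genes. Dmd is counted in these figures although it was picked for its fall. With Neb, Ttn and Dmd left out, 6 of 160 were called lower, and the share was 0.609 ± 0.0174% in KO and 0.612 ± 0.0683% in WT. The median log2 fold change of the class was -0.11, with 70 of the 163 values above 0. Dmd had the lowest log2 fold change of the 163, and the next lowest was -1.22, of Xirp2, a gene of the fibre's attachment sites. Utrn, with a transcript of 12382 bases, stood at 0.16.

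**Figure D2:**
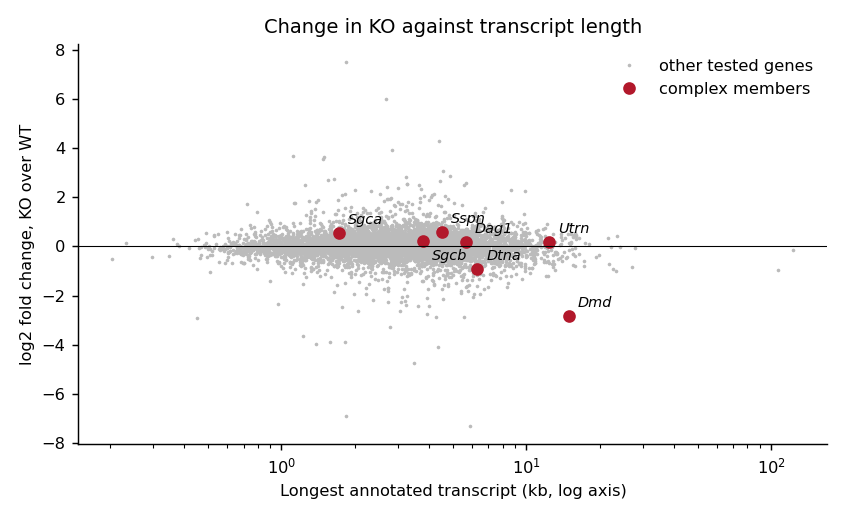
Log2 fold change of KO over WT for every tested gene against its longest annotated transcript in kb (log axis), with the 7 tested members in red. Dmd at 14.9 kb lies at -2.82, while Utrn at 12.4 kb lies at 0.16.

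Utrn, which can take over part of dystrophin's role when raised in dystrophin-deficient mice, was not called different. It had 83, 70 and 94 counts in KO replicates 1 to 3, against 69, 66 and 55 in WT replicates 1 to 3. The genotypes overlapped once scaled, at 43.7 to 53.8 CPM in KO and 37.7 to 50.3 CPM in WT. The log2 fold change was 0.16 (95% interval -0.22 to 0.54, edgeR adjusted p = 0.686). On the TMM scale a rise of more than 1.46-fold or a fall below 0.857 of the WT level lies outside the interval. Utrn passed in none of 14 other settings, with log2 fold changes of 0.05 to 0.39. The highest came with library totals (edgeR adjusted p = 0.211), where the interval would lie higher.

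Within each library, the number of Utrn reads for each Dmd read needs no scaling between libraries. It was 5.93, 2.92 and 3.62 in KO replicates 1 to 3, against 0.507, 0.520 and 0.430 in WT replicates 1 to 3. Utrn reads thus outnumbered Dmd reads in every KO library and were outnumbered in every WT library. Since the ratio contains Dmd, it describes the same difference and is no separate evidence.

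Dag1, whose protein is cut into alpha- and beta-dystroglycan, was close between the genotypes. It had 160, 137 and 137 counts in KO replicates 1 to 3, against 105, 102 and 125 in WT replicates 1 to 3, or 87.3 ± 9.83 CPM in KO and 77.2 ± 8.05 CPM in WT (SD, n = 3 each). These levels overlapped, with a log2 fold change of 0.18 (95% interval -0.16 to 0.51, edgeR adjusted p = 0.593). Dag1 passed in none of 14 other settings, with log2 fold changes of 0.08 to 0.42, the highest with library totals.

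Sgca, the sarcoglycan confined largely to striated muscle, rose in KO. It had 331, 251 and 298 counts in KO replicates 1 to 3, against 145, 173 and 202 in WT replicates 1 to 3. The lowest KO library, at 157 CPM, lay above the highest WT library, at 138 CPM. The log2 fold change of 0.55 had an SE of 0.15 (95% interval 0.23 to 0.87, edgeR adjusted p = 0.0423), or 1.46-fold. Over 14 other settings the adjusted p ranged from 0.0034 to 0.217, and the call was lost in 7 of them. These were DESeq2 (0.113), DESeq2 size factors in edgeR (0.0516), robust=FALSE (0.0562) and leaving out WT replicate 1 (0.217), WT replicate 2 (0.212), KO replicate 1 (0.106) or KO replicate 3 (0.0925).

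Sspn, a membrane protein with several membrane spans that joins the sarcoglycans, had 102, 89 and 76 counts in KO replicates 1 to 3, against 47, 60 and 48 in WT replicates 1 to 3. Its libraries did not overlap, at 43.5 to 62.4 CPM in KO and 32.9 to 40.9 CPM in WT. It did not pass the test (log2 fold change 0.58, 95% interval 0.17 to 0.99, edgeR adjusted p = 0.0954), and it passed only with library totals (0.81, edgeR adjusted p = 0.0208) among the 14 other settings. On that scale 9.78% of all tested genes were called higher and 2.22% lower.

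Sgcb and Sgcd are partners in the core of the sarcoglycan unit. Sgcb had 69, 72 and 52 counts in KO replicates 1 to 3, against 41, 52 and 49 in WT replicates 1 to 3, and once scaled KO replicate 3 lay just below the lowest WT library and the other KO libraries above the highest. Its log2 fold change was 0.24 (95% interval -0.21 to 0.68, edgeR adjusted p = 0.591). Sgcd was read rarely, with 1, 4 and 4 counts in KO replicates 1 to 3, against 5, 12 and 13 in WT replicates 1 to 3. It was the only member too low to be tested. The sums of 9 counts in KO and 30 in WT give a scaled ratio of 0.259, with an exact binomial 95% interval of 0.108 to 0.559 that covers counting error only. All KO libraries were at or below 2.50 CPM, while 3 counts stand for 1.72 to 1.87 CPM in KO and 2.04 to 2.19 CPM in WT. With no filter on low counts Sgcd passed as lower (edgeR adjusted p = 0.0167), and its adjusted p was 0.0476 to 0.192 in the 4 fits that left out a library and kept the gene.

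Dtna, which links dystrophin to the syntrophins and shares part of its sequence with dystrophin, fell in KO. It had 68, 66 and 75 counts in KO replicates 1 to 3, against 85, 124 and 135 in WT replicates 1 to 3. The KO libraries lay between 41.2 and 43.0 CPM, and the WT libraries were spread from 62.0 to 92.4 CPM. The log2 fold change of -0.93 had an SE of 0.18 (95% interval -1.30 to -0.55, edgeR adjusted p = 0.00513), and the call held in all 14 other settings, with adjusted p of 0.0304 or less.

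**Figure D3:**
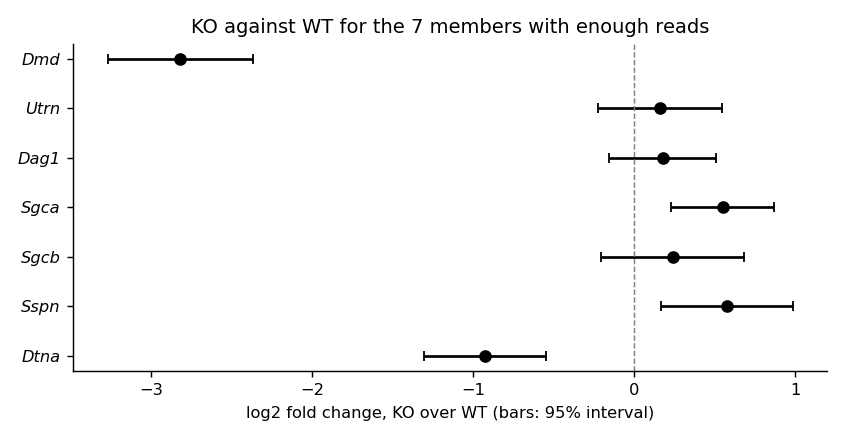
Log2 fold change of KO over WT with 95% intervals (bars) for the 7 members with enough reads. The intervals of Utrn, Dag1 and Sgcb span 0, those of Sgca and Sspn lie above 0, and those of Dmd and Dtna below; Dmd was picked for its fall.

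Beside Dmd, 6 of the 7 other members passed the filter on low counts. Of these 6, Sgca was called higher, Dtna was called lower and 4 were not called. Over all tested genes 2.98% were called higher, 3.28% lower and 6.26% in either direction. The genotypes did not overlap for 3 of the 6 (Sgca and Sspn higher, Dtna lower), against 25.8% of all tested genes (13.5% with KO higher, 12.2% with KO lower). The median of their log2 fold changes was 0.21, against 0.02 over all tested genes. With so few members, chosen with these results known, nothing is read from these counts.

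The members' reads together came to 713 to 828 counts in each KO library and 633 to 755 in each WT library. Dmd supplied 2.82 ± 0.981% of them in KO and 18.7 ± 2.42% in WT (SD, n = 3 each). Dtna supplied 9.10 ± 0.826% in KO and 16.2 ± 2.42% in WT. Sgca supplied 38.1 ± 2.54% in KO and 24.6 ± 1.96% in WT, the largest share in every library. Without Dmd, the other 7 members summed to 422 to 498 CPM in KO and 363 to 429 CPM in WT, and these ranges overlapped. Reads are per gene and not per length, so the shares do not give the members' ratio as molecules.

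**Figure D4:**
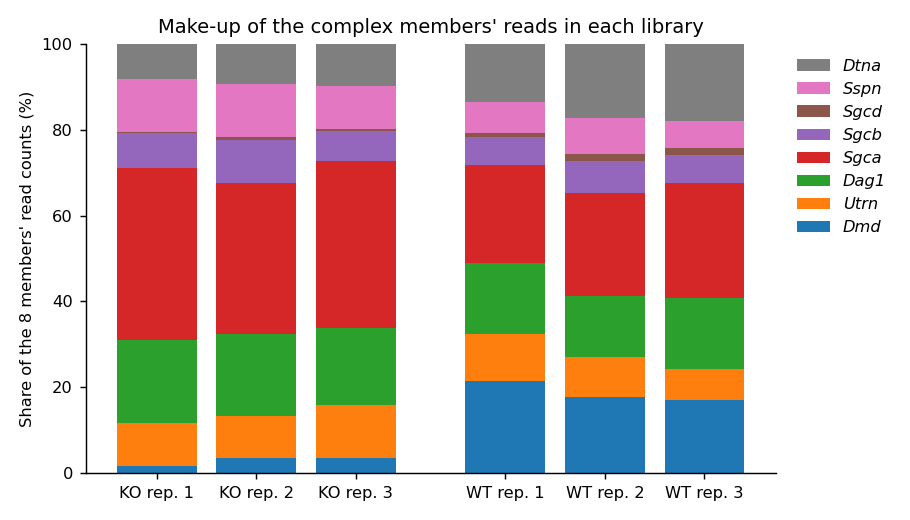
Share in percent of the 8 members' read counts held by each gene in every library, with KO replicates left and WT replicates right. Dmd takes 1.69 to 3.41% in the KO libraries and 17.0 to 21.5% in the WT libraries.

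Spread between libraries differed among the members. The coefficient of variation in KO was 2.18% for Dtna, 10.5% for Utrn and 28.7% for Dmd, and in WT it was 19.8% for Dtna, 14.4% for Utrn and 7.71% for Dmd. That of Sgcd was 57.5% in KO and 41.2% in WT, on few reads.

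Among other genes of the complex and its partners, Grb2 rose and Mast2 fell. Of 31 listed, 18 had enough reads and 16 of these did not pass, so 2 of 18 were called, against 6.26% of all tested genes, and nothing is read from so small a count. Their median log2 fold change was 0.15. Mast2, a kinase that binds syntrophin, had 29, 39 and 39 counts in KO replicates 1 to 3, against 81, 91 and 109 in WT replicates 1 to 3, with no overlap (a log2 fold change of -1.60 with SE 0.19, edgeR adjusted p = 0.000116). Grb2, a signalling adaptor that binds beta-dystroglycan among many other partners, had 112, 57 and 78 counts in KO replicates 1 to 3, against 17, 19 and 19 in WT replicates 1 to 3. These did not overlap either, and the log2 fold change of 1.95 passed (SE 0.27, edgeR adjusted p = 0.000403). Both calls held in all 14 other settings.

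The plectin gene Plec, which links filaments to the membrane, had a log2 fold change of -0.29, and that of the intermediate filament gene Des was 0.45, neither of which passed (edgeR adjusted p = 0.242 and 0.570). Des was uneven in KO, with 2003 counts in replicate 2 and 943 and 1068 in the others. Cav3 (caveolin-3) and Ank3 (an ankyrin that anchors dystrophin) had log2 fold changes of -0.09 and 0.19 and did not pass (edgeR adjusted p = 0.869 and 0.604). Cav3 changed sign with library totals (0.15).

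Direct partners outside the naming rule, chosen after their values were seen, were also not called. Nos1, the nitric oxide synthase held at the membrane through dystrophin and syntrophin, had 23, 20 and 28 counts in KO replicates 1 to 3, against 12, 22 and 18 in WT replicates 1 to 3 (edgeR adjusted p = 0.718). Lama2, the laminin chain that dystroglycan holds, stood at 20.4 ± 2.88 CPM in KO and 21.3 ± 6.34 CPM in WT (SD, n = 3 each, edgeR adjusted p = 0.929). Aqp4, a water channel held by syntrophin, had 13, 9 and 18 counts in KO replicates 1 to 3, against 20, 23 and 26 in WT replicates 1 to 3. It lay lower in every KO library but did not pass (log2 fold change -0.99, edgeR adjusted p = 0.0698). The genes Sgcz, Sntg1 and Sntg2 had no read in any library.

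Further genes build the sugar chain by which alpha-dystroglycan holds laminin. Of 22 listed, 21 were in the table and 11 had enough reads, of which 1 fell and 10 did not pass, against 3.28% lower and 6.26% called in either direction over all tested genes. The median log2 fold change of the 11 was 0.09. B3galnt2, which adds N-acetylgalactosamine to this chain, fell. It had 24, 29 and 36 counts in KO replicates 1 to 3, against 45, 69 and 74 in WT replicates 1 to 3, with no overlap (a log2 fold change of -1.29 with SE 0.23, edgeR adjusted p = 0.00356), and the call held in all 14 other settings. The mannose donor genes Dpm1, Dpm2 and Dpm3, the glucuronyltransferase gene B4gat1 and the dolichol kinase gene Dolk had log2 fold changes of 0.05, 0.04, 0.27, 0.15 and 0.01 and did not pass.

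**Figure D5:**
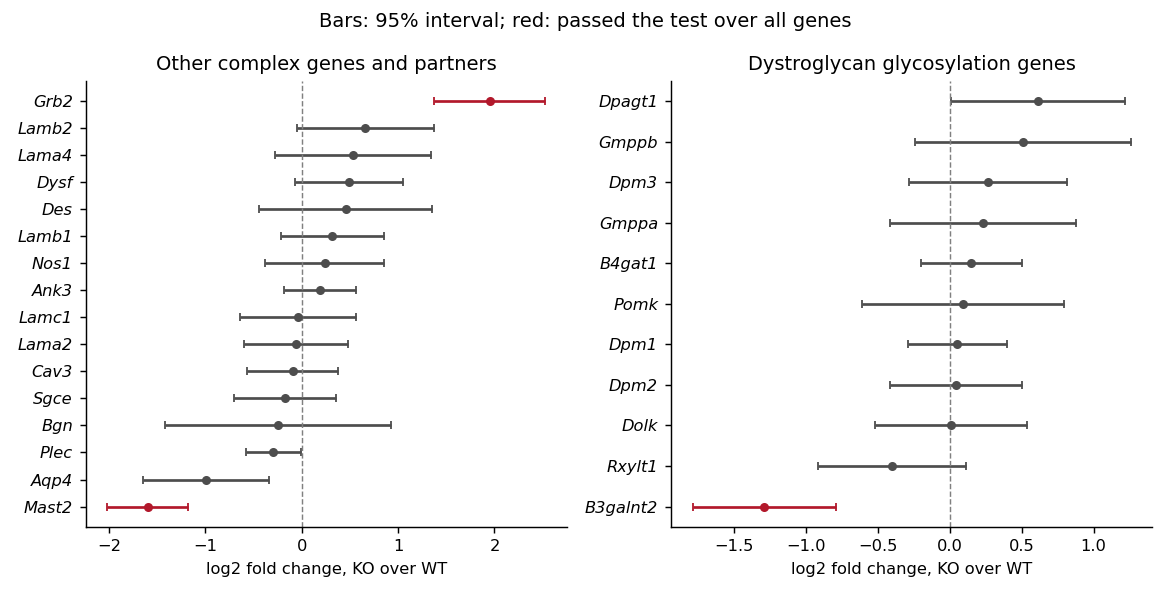
Log2 fold change of KO over WT with 95% intervals (bars) for tested complex partners (left, 16 of 18 shown) and dystroglycan glycosylation genes (right), with red for genes that passed the test over all genes. Grb2 at 1.95, Mast2 at -1.60 and B3galnt2 at -1.29 are the coloured genes.

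Cells other than fibres also express several members, Utrn and Dag1 among them. Summed levels of the 6 endothelial markers were 189 to 239 CPM in KO and 186 to 218 CPM in WT, and all 6 had reads. Those of the 6 smooth muscle and pericyte markers were 707 to 861 CPM in KO and 717 to 769 CPM in WT. The 6 fibroblast markers summed to 1340 to 2124 CPM in KO and 1348 to 2166 CPM in WT. The 6 Schwann cell markers summed to 134 to 200 CPM in KO and 148 to 262 CPM in WT. No gene of these 4 lists was called, and the genotypes overlapped for each sum.

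Further lists bear on dystrophin loss, which in mdx mice brings fibre breakdown, inflammation and regeneration. The 6 macrophage and leukocyte markers summed to 137 to 155 CPM in KO and 112 to 383 CPM in WT, and the 5 satellite cell markers to 12.5 to 16.6 CPM in KO and 12.3 to 26.3 CPM in WT. The adipocyte markers summed to 282 to 352 CPM in KO and 144 to 442 CPM in WT, and the red blood cell markers to 1401 to 2016 CPM in KO and 1623 to 4002 CPM in WT. The 6 regenerating fibre markers summed to 361 to 576 CPM in KO and 32.9 to 59.1 CPM in WT, nearly all of it Myog, a myogenic factor that also rises on denervation. Myog had 911, 560 and 788 counts in KO replicates 1 to 3, against 69, 44 and 42 in WT replicates 1 to 3, and it was called higher. The embryonic myosin Myh3 had 3 counts in KO and 4 in WT, summed over the libraries, and the neonatal myosin Myh8 had 27 in KO and 8 in WT. The fibre marker sum given above was lower in every KO library. The part of these shifts in the members' values was not tested.

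The genes whose profile over the 6 libraries was most like that of Dmd were Gpx3, Pak1, Fbxo40, Tmem222 and Rps6ka2, with Pearson r from 0.993 to 0.998 on log2 CPM among 3722 tested genes of at least 20 CPM. The libraries form 2 groups by genotype, so r mainly reflects the step between them. Gpx3, a secreted glutathione peroxidase, stood at 1210 ± 135 CPM in KO and 2886 ± 138 CPM in WT, and Pak1, a kinase of the actin cytoskeleton, at 11.6 ± 1.59 CPM in KO and 55.7 ± 5.66 CPM in WT (SD, n = 3 each). For Utrn they were Ssb, Col4a1, Lrba, Tnrc6b and Map3k4, with r from 0.953 to 0.997, and none of these 5 was called (log2 fold changes 0.14 to 0.48, edgeR adjusted p = 0.406 to 0.725).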

How the data were processed

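RNA from 6 libraries (3 KO, 3 WT) was made into cDNA, amplified in 14 PCR cycles and read on a nanopore instrument, per the labels' protocols. The authors' deposited table gives whole-number read counts for 22036 Ensembl genes, not normalized, and CPM for the same genes, per the file headers. The deposited CPM were not used. The submitters' processing notes name minimap2, DESeq2 1.6.3 and the build GRCm38. No source used here names the counter, the annotation release or the strand setting. Libraries were numbered 1 to 3 in accession order.

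The whole table of counts went through edgeR 4.0.16 in R 4.3.3 (filterByExpr with minimum count 10 and total 15, TMM, robust quasi-likelihood, Benjamini-Hochberg adjustment at 0.05). Printed CPM use TMM-scaled library sizes. Symbols came by Ensembl identifier from a reference table (22022 matched), and positions and transcript lengths from GENCODE M21. Promoter windows came from RefSeq; 7 of the 8 members (all but Dtna) matched. Alternatives used DESeq2 1.42.0, limma 3.58.1, other scalings and filters, and each library left out in turn. On simulated counts for KO against WT (6734 genes), 20% of genes changed 1.5-fold were called, 63.3% at 2-fold and 100% at 4-fold. The changed genes were drawn only from those with a mean of at least 20 counts a library, so rates for genes with fewer reads were not measured. The members, gene lists and tests were chosen with earlier results of these data known. Named genes were the 8 members, Prr14, every called gene and the 6 most abundant of each list, and the 5 genes most like Dmd and Utrn, plus those said to be outside this rule. A few genes counted in these lists are not named here. Without molecular identifiers, PCR copies are counted as reads, and the binomial interval and the floors cover only counting error. The edgeR intervals use the spread between libraries.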

Additional observations from a re-analysis of the deposited data

How the results depend on the processing

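Over 14 other settings the log2 fold change of Dmd stayed between -2.95 and -2.59. The count of all called genes, 418, was 801 with library totals (653 higher, 148 lower), 706 with no filter on low counts (344 higher, 362 lower), and 237 to 363 with a library left out (273 without WT replicate 1, 237 without WT replicate 2). The count of called members other than Dmd, 2, was 3 with library totals (2 higher, 1 lower) and 3 with no filter (1 higher, 2 lower). It was 1 with DESeq2 size factors, with DESeq2 and with robust=FALSE, where Sgca was lost, and 1 to 2 with a library left out. Without WT replicate 1 these were Dtna and Sgcd. The counts for the other complex genes (2) and for the glycosylation genes (1) were within 1.5 times in all settings run. Small differences changed sign in genes that passed in no setting. Cav3 was 0.15 with library totals and -0.37 to 0.088 with a library left out. Dolk was -0.0087 with DESeq2 size factors, -0.0015 with upper-quartile scaling, -0.00033 with no filter, -0.0064 with DESeq2, -0.019 with limma-voom and -0.18 to 0.19 with a library left out. With a library left out Dpm1 was -0.095 to 0.13, Dpm2 -0.084 to 0.098 and Dpm3 -0.0068 to 0.47. Changes under 2-fold are often missed at this depth. No paired analysis was possible because the sample titles of the genotypes share only a single number.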

Other observations

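Krt8, a keratin that links sarcomeres to dystrophin at the membrane in mouse muscle together with Krt19, had 10, 3 and 1 counts in KO replicates 1 to 3, against 0 in each WT library. It was too low for the test, and it passed as higher with no filter on low counts (edgeR adjusted p = 0.0104). Set against a floor of 3 counts over the WT group, its scaled KO sum gave a ratio of 4.03. Without KO replicate 1, which held most of the reads, the ratio was 1.71, on 4 KO counts. The ratios leave out counting error in the KO counts, so they set no lower bound on a rise. KO replicates 2 and 3 were at or under 3 counts. It was singled out after its values were seen.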
